A study of Mus musculus with 6 samples.

Results

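This report describes 10 mural and contractile cell genes in PDPN+PDGFRα+ stromal cells of mouse melanoma: Acta2, Tagln, Myh11, Cnn1, Rgs5, Cspg4, Des, Mcam, Myl9 and Tpm2. They were taken by name from the 53801 genes of the deposited count table, and each name matched exactly 1 gene. Mural cells are the pericytes of capillaries and the smooth muscle cells of larger vessels, which wrap the endothelium and regulate vessel stability and tone. Smooth muscle cells, and pericytes to a varying degree, express a contractile program in which smooth muscle actin and myosin slide past each other. In it, tropomyosin and calponin regulate the filament, and serum response factor (SRF) with myocardin-type coactivators switches on many of the genes. Part of this program is shared by myofibroblasts, the contractile form of fibroblasts in wounds and tumors, so that Acta2 alone does not separate them from mural cells.

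RNA was sequenced from cells sorted as CD45-CD31-PDPN+PDGFRα+ from subcutaneous melanomas of the MO5 line (B16 cells that express ovalbumin) in C57Bl/6 mice. The DTR group had 3 libraries, from ADAM12-DTR mice, which carry a transgene placing the diphtheria toxin receptor under the Adam12 promoter, and the Ctrl group had 3, from littermates without the transgene. Diphtheria toxin was given to all 6, so the groups differ in the transgene and not in the toxin. The mice were young adults, sex-matched between the groups, per the study's methods. Whether a library holds 1 mouse or a pool is not given in the sample labels, and the p-values measure the spread between these libraries. The libraries held between 22339635 and 34271929 counts, at which 3 counts equal 0.0873 to 0.132 CPM, a floor that covers counting error only. CPM put all libraries on a common total, here after TMM factors had adjusted each total for composition.

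The sort and the targeted cells were checked first. Pdgfra was at 42.7 to 125 CPM in Ctrl and 54.0 to 132 in DTR, and Pdpn at 46.0 to 73.3 and 49.0 to 99.2. Adam12 was at 216, 181 and 175 CPM in the Ctrl libraries and at 165, 151 and 112 in the DTR libraries, a log2 fold change of -0.42 ± 0.15 (SE) with an edgeR adjusted p of 0.60. Transcripts of other cells were present in all 6 libraries. The 12 melanoma markers, all tested, summed to 17952 to 21051 CPM in Ctrl and 16874 to 19906 in DTR, with Dct the most abundant in CPM (which are not adjusted for length), while the 14 fibroblast markers, led by Col3a1, summed to 5627 to 14673 in Ctrl and 6226 to 15504 in DTR. The fibroblast sum was high in Ctrl 1, DTR 1 and DTR 3 and low in Ctrl 2, Ctrl 3 and DTR 2. All 14 fibroblast markers had a fold change above 0 (median log2 fold change 0.40) and 10 of the 12 melanoma markers had one below 0 (median -0.08), with none at an adjusted p under 0.05 by edgeR. Groups did not overlap for 1 of these genes, Sox10, which was lower in DTR (log2 fold change -0.28 ± 0.10, SE), as were 8.18% of all genes tested in this way. Of 10 endothelial markers 5 were tested, and their sum was 27.0 to 34.5 CPM in Ctrl and 33.6 to 100 in DTR, mostly Tek and Vwf, with Emcn, Cldn5, Tie1 and Egfl7 at no more than 3 counts in any library. Tek (log2 fold change 1.84 ± 0.78, SE) and Vwf (0.51 ± 0.14) had an unadjusted p under 0.05 by edgeR, as did 7.92% of all genes tested, and no adjusted p under 0.05. Tek was at 11.2, 4.36 and 7.70 CPM in Ctrl and 14.7, 5.99 and 62.9 in DTR. Its groups overlapped, and its lowest estimate with 1 library left out was 0.42. Of the 5 tested, 4 had a fold change above 0 and 1, Cdh5, below (-1.53 ± 0.96, SE). Every DTR library was above every Ctrl library for Vwf, as for 6.32% of all genes tested. The 10 immune markers, led by mean CPM by Ptprc in Ctrl and by Lyz2 in DTR, summed to 78.1 to 161 CPM in Ctrl and 106 to 117 in DTR. The 12 skeletal muscle markers summed to 6.49 to 10.8 and 9.05 to 12.2 CPM, led by Ttn and with Myh4, Myh2 and Pax7 at 0, and the 5 keratinocyte markers to at most 0.939 and 1.38 CPM, led by Krt10 and with Krt1 at 0. The part of these cells in the results below was not tested.

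To show the regulatory element that names the contractile program, 300-base promoter windows (GRCm38.p6, RefSeq) from 250 bases before to 50 after the gene start were searched for the CArG box, the site that SRF binds, which reads alike on both strands. Windows were found for 8 of the 10 genes (not for Tagln and Myh11). A full CArG box stood in 1 of the 8, Myl9, and in 1.63% of all 32851 windows. A looser form with 1 G or C in its A/T core stood in 2 of the 8, Acta2 and Myl9, and in 8.5% of all windows. The windows of Acta2, Myl9 and Cspg4 are given, read 5′ to 3′ on the strand of the gene, with each box in capitals. Acta2 and Myl9 are the 2 genes with a box, and Cspg4 is the gene whose groups did not overlap. Acta2 lies at chr19:34255324-34255623 (minus strand), Myl9 at chr2:156775214-156775513 (plus strand) and Cspg4 at chr9:56864854-56865153 (plus strand).
Acta2: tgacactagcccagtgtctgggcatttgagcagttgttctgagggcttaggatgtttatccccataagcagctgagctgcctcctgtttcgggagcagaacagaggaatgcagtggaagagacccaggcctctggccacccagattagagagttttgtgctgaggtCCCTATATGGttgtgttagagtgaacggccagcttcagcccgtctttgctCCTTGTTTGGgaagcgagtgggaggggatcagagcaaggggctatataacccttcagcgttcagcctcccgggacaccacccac
Myl9: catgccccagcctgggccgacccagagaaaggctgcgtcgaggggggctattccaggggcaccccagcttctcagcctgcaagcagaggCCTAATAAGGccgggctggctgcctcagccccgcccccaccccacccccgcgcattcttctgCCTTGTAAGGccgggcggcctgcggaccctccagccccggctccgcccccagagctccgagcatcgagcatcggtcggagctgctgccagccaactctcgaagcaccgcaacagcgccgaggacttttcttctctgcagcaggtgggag
Cspg4: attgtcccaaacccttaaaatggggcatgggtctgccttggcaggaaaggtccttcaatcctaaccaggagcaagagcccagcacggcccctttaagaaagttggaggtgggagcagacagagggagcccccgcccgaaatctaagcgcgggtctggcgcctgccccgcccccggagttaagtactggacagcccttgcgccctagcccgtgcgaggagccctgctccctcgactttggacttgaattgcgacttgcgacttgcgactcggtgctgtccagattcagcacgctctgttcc
In Acta2 the looser boxes begin 84 and 34 bases before the RefSeq start, and in Myl9 the full box begins 161 bases and the looser box 99 bases before it. The gene bounds given with the results come from GENCODE, span all transcripts of a gene and begin upstream of the RefSeq start for all 3, so that both Acta2 boxes lie within its GENCODE bounds. No letters of either form stand in the Cspg4 window.

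All 10 genes were detected, but most were scarce. Compared per length, as RPKM (CPM divided by the exon length in kilobases, mean of the 6 libraries), the order was Mcam at 11.3, Acta2 at 3.35, Tpm2 at 2.46, Tagln at 1.60, Myl9 at 1.52, Des at 1.21, Cspg4 at 0.560, Rgs5 at 0.0927, Myh11 at 0.0803 and Cnn1 at 0.0177. Among the 16928 protein-coding genes with a count, Mcam ranked 3325th and Acta2 7735th by this level, and Rgs5, Myh11 and Cnn1 ranked 13470th, 13650th and 15233rd. Neighbours in this order were separate at 2 points. The lowest Mcam library, at 8.32 RPKM, was above the highest Acta2 library, at 7.59, and the lowest Cspg4 library, at 0.254 RPKM, was above the highest Rgs5 library, at 0.234. From Acta2 to Cspg4 the range of each gene overlapped that of the next, as did those of Rgs5, Myh11 and Cnn1. Rgs5, Myh11 and Cnn1 were the 3 at the lowest level.

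**Figure D1:**
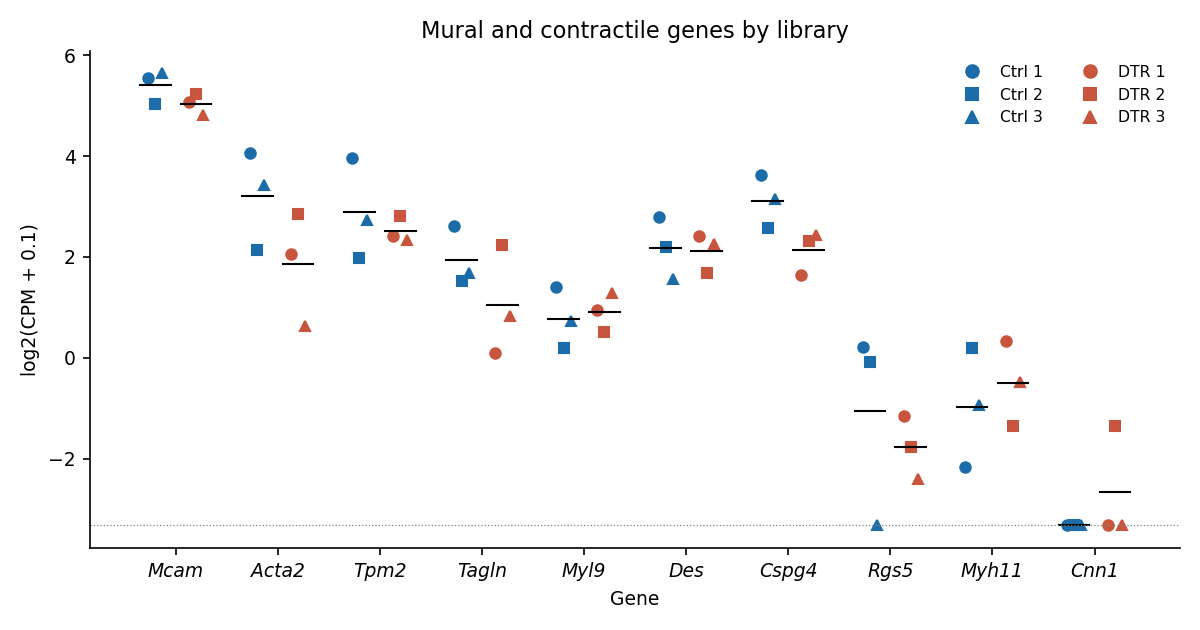
Expression of the 10 genes in each library, as log2(CPM + 0.1), ordered from left to right by mean level per length. Points are libraries (Ctrl in blue, DTR in red, the symbol giving the replicate number), black bars are group means of the plotted values and the dotted line is the position of 0 reads. Cspg4 is the gene in which every DTR point lies below every Ctrl point, and Ctrl 1 is the highest point for Acta2, Tagln, Rgs5, Cspg4, Des, Myl9 and Tpm2.

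The comparison of DTR with Ctrl asks what the sorted fraction expresses in mice whose ADAM12+ cells are targeted by the toxin. Adam12 was still at 112 to 165 CPM in the DTR libraries, and the extent of depletion in the sorted fraction was not tested. By edgeR's quasi-likelihood test, 0 of the 8 members that passed the filter on low counts had an adjusted p under 0.05, which is also the result for all genes tested (0 of 15133, or 0%). Fold changes were below 0 for 6 of the 8 (Acta2, Tagln, Cspg4, Des, Mcam and Tpm2) and above 0 for Myh11 and Myl9, and the median was -0.49 on the log2 scale against -0.0029 for all genes tested. Without Ctrl 1 the median of the members was -0.17. At an unadjusted p under 0.05 there was 1 member, Cspg4, against 7.92% of all genes in either direction and 4.11% in the lower direction. DESeq2's Wald test called 31 genes, 0.151% of those it gave an adjusted p, and no member was among them. In bulk RNA, fewer cells of a type and less RNA per cell cannot be told apart.

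**Figure D2:**
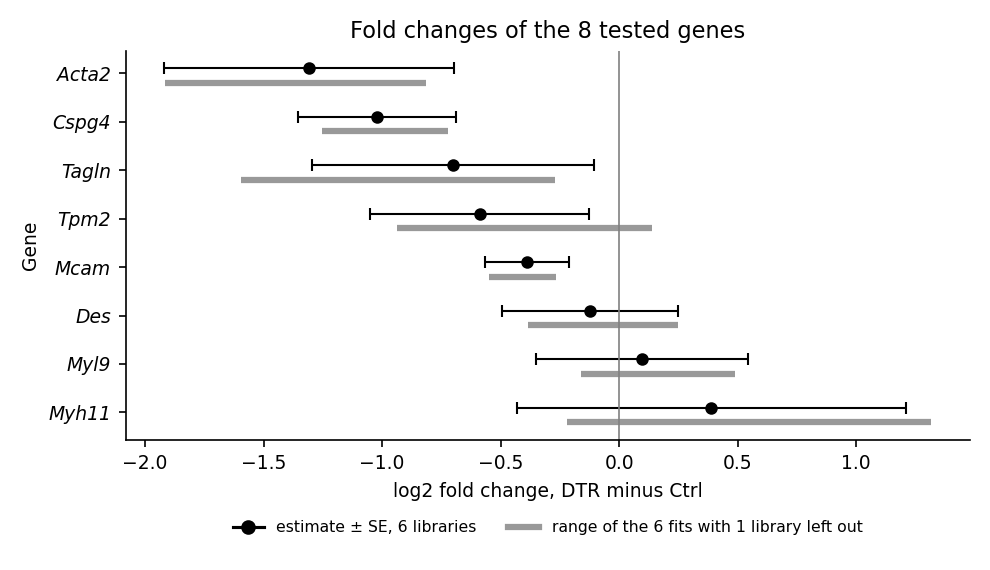
Log2 fold change (DTR minus Ctrl) of the 8 tested genes from edgeR. Black points with bars are the estimate with its SE over 6 libraries, and grey bars run from the lowest to the highest estimate when 1 library is left out. The grey bars of Acta2, Cspg4, Tagln and Mcam stay below 0, and those of Tpm2, Des, Myl9 and Myh11 cross it.

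Among the pericyte surface proteins, Cspg4 (ENSMUSG00000032911, chr9:56865033-56899870, plus strand) encodes NG2, a proteoglycan of pericytes and of some other progenitors. Its counts were 301, 139 and 248 in Ctrl and 104, 152 and 121 in DTR, or 12.3, 5.82 and 8.72 CPM against 3.02, 4.90 and 5.34 CPM. Every DTR library was below every Ctrl library, by a narrow margin between Ctrl 2 and DTR 3, and Cspg4 was the only member of which this was true, in either direction. Over all genes tested, 8.18% had every DTR library below every Ctrl library and 6.32% the reverse, so 1 in 8 is near the background. The group means were 8.94 ± 3.24 and 4.42 ± 1.23 CPM (SD, n = 3 each). The edgeR fit gave a log2 fold change of -1.02 ± 0.33 (SE), or 0.493-fold. Its unadjusted p was 0.016 and its adjusted p 0.60 by edgeR, and the two-sided exact permutation test gave p = 0.1, the smallest that 3 against 3 libraries can give. The estimate stayed between -1.25 and -0.72 when any library was left out. Its unadjusted p was 0.063 without Ctrl 1 and 0.055 without DTR 1, and DESeq2 gave an adjusted p of 0.36.

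Mcam (chr9:44134469-44142727, plus strand) encodes CD146, an adhesion molecule of mural and endothelial cells that is also known from human melanoma cells, as is NG2. It was read 1137, 783 and 1415 times in Ctrl and 1146, 1158 and 632 times in DTR, which is 46.4, 32.8 and 49.7 CPM against 33.3, 37.3 and 27.9 CPM. Mcam made up 43.2% to 60.4% of the summed CPM of the 10 genes in each library. Ctrl 1 and Ctrl 3 were above all DTR libraries, and Ctrl 2 lay just below DTR 1. The log2 fold change was -0.39 ± 0.18 (SE), adjusted p = 0.63 by edgeR, and the exact permutation p was 0.3. The melanoma markers, whose sums are given above, were in the same libraries at levels far above Mcam and Cspg4, and their part in both values was not tested.

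Rgs5, a regulator of G-protein signaling that is among the most used pericyte markers, gave 26, 20 and 0 counts in Ctrl and 12, 6 and 2 in DTR. The 0 in Ctrl 3 allows up to 3 counts, or 0.105 CPM of that library. Ctrl 1 and Ctrl 2 were above all DTR libraries, while Ctrl 3 cannot be told apart from DTR 3 at this depth, and the gene did not pass the filter on low counts. In the fit of all genes with a count its log2 fold change was -1.53, adjusted p = 0.77. Des (chr1:75360329-75368579, plus strand) encodes desmin, the intermediate filament of muscle and of pericytes. It was at 6.86, 4.48 and 2.85 CPM in Ctrl and 5.26, 3.09 and 4.68 CPM in DTR, with the DTR values lying within the Ctrl range. Its log2 fold change of -0.12 ± 0.37 (SE) had an adjusted p of 0.94 by edgeR, and the sign turned without Ctrl 1 (0.25) or without DTR 2 (0.07).

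Among the filament proteins, Acta2 (ENSMUSG00000035783, chr19:34241090-34255590, minus strand) encodes smooth muscle α-actin (αSMA), the usual marker of myofibroblasts and mural cells. Its counts were 408, 102 and 302 in Ctrl and 139, 222 and 33 in DTR, or 16.7, 4.27 and 10.6 CPM against 4.04, 7.15 and 1.46 CPM. The highest library was 11.4 times the lowest, the widest spread of any member detected in every library, and Ctrl 2 was below DTR 2, so the groups overlapped. The means were 10.5 ± 6.20 and 4.22 ± 2.85 CPM (SD, n = 3 each). The log2 fold change of -1.31 ± 0.61 (SE), or 0.404-fold, was the lowest of the 8 and had an unadjusted p = 0.065 and an adjusted p of 0.63 by edgeR, with an exact permutation p of 0.2. It ranged from -1.91 without DTR 2 to -0.81 without Ctrl 1.

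Tagln encodes transgelin (SM22α), an actin-binding protein of smooth muscle. It was at 6.003, 2.76 and 3.09 CPM in Ctrl and 0.960, 4.64 and 1.68 CPM in DTR. DTR 1 and DTR 3 were below all Ctrl libraries and DTR 2 was above Ctrl 2 and Ctrl 3. Its log2 fold change was -0.70 ± 0.59 (SE), adjusted p = 0.76 by edgeR, and -1.59 without DTR 2, -0.31 without DTR 1 and -0.27 without Ctrl 1. Tpm2 encodes β-tropomyosin, which runs along the actin filament. It was at 15.4, 3.85 and 6.50 CPM in Ctrl and 5.21, 6.96 and 4.94 CPM in DTR. The 3 DTR libraries lay close together while Ctrl 1 was far above Ctrl 2. The log2 fold change of -0.59 ± 0.46 (SE) had an adjusted p of 0.75 by edgeR and was 0.14 without Ctrl 1.

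Myl9, the regulatory light chain of smooth muscle myosin, was at 2.53, 1.05 and 1.55 CPM in Ctrl and 1.83, 1.32 and 2.34 CPM in DTR. All DTR libraries lay within the Ctrl range, and the log2 fold change was 0.10 ± 0.45 (SE), adjusted p = 0.96 by edgeR. When libraries were scaled to their fibroblast markers, which put the median of all genes tested at -0.44, it was -0.28, still above that median. Myh11, the smooth muscle myosin heavy chain and the most specific marker of mature smooth muscle in the list, had 3, 25 and 12 counts in Ctrl and 40, 9 and 14 in DTR. Ctrl 1 was its lowest library, which was the highest of 7 other members, and DTR 1 was its highest. The log2 fold change of 0.39 ± 0.82 (SE), adjusted p = 0.92 by edgeR, ran from -0.22 without DTR 1 to 1.32 without Ctrl 2 and was -0.46, near the median of all genes, with the scaling to fibroblast markers. Cnn1, calponin of smooth muscle, had 9 counts, all in DTR 2, and 0 in the other 5 libraries. Those zeros allow up to 3 counts in each library, so a difference between the groups was not detectable at this depth.

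Scaling the libraries to their summed fibroblast markers, an alternative chosen after seeing the data, shifted the median log2 fold change of all genes tested to -0.44 and that of the 8 members to -0.63. Cspg4 was then at 0.838, 1.01 and 1.55 counts per 1000 fibroblast marker counts in Ctrl and 0.255, 0.786 and 0.344 in DTR, and these groups did not overlap either, as was true of 1 of the 8 members and of 1.01% of all genes tested in the lower direction on this scale. Acta2 was at 1.14, 0.741 and 1.89 in Ctrl and 0.341, 1.15 and 0.0939 in DTR, and these did. The log2 fold change of Cspg4 was -1.30 and that of Acta2 -1.26 under this scaling, each with an adjusted p of 0.90 by edgeR.

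Ctrl 1 was the highest library for 6 of the 8 tested members, the exceptions being Mcam, highest in Ctrl 3, and Myh11, highest in DTR 1. Without Mcam the 10 genes summed to 60.9 CPM in Ctrl 1, 24.1 in Ctrl 2 and 33.7 in Ctrl 3, and to 21.8, 28.8 and 21.1 CPM in the DTR libraries, so that Ctrl 1 stood above the other 5. The summed CPM of all 10 was 82.6 ± 25.2 in Ctrl and 56.8 ± 8.67 in DTR (SD, n = 3 each). The fibroblast sum was high in Ctrl 1, where the members summed highest, and in DTR 1 and DTR 3, where they summed lowest, and its part in the members' levels was not tested.

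**Figure D3:**
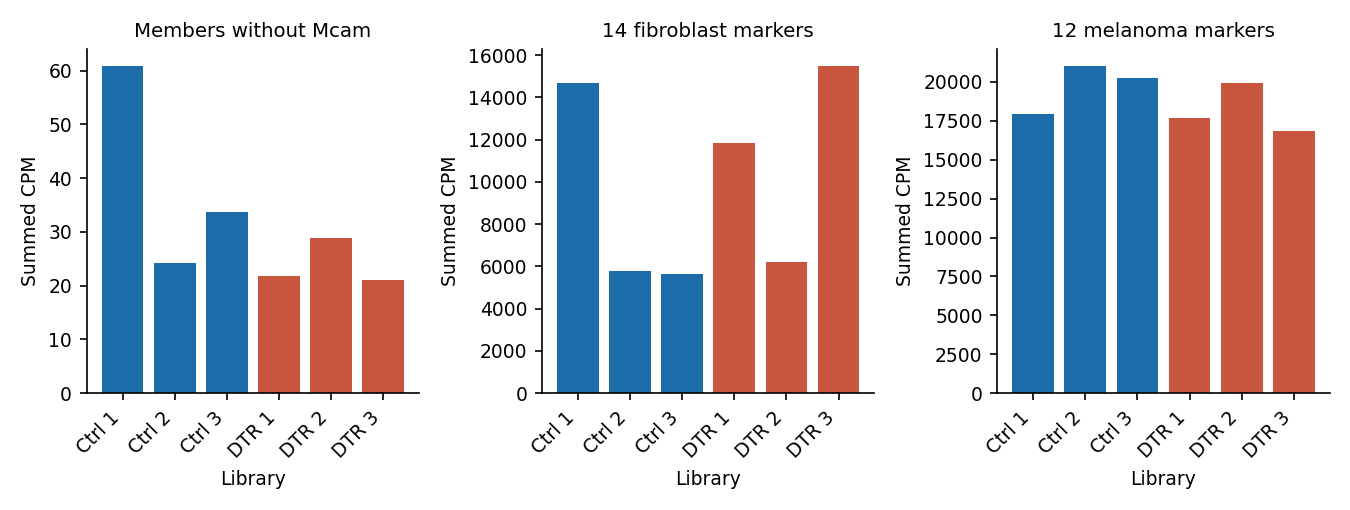
Summed CPM per library of the members without Mcam (left), of the 14 fibroblast markers (middle) and of the 12 melanoma markers (right), 1 bar a library, Ctrl in blue and DTR in red, each axis starting at 0. The members are highest in Ctrl 1 at 60.9 CPM, the fibroblast markers are high in Ctrl 1, DTR 1 and DTR 3, and the melanoma markers lie between 16874 and 21051 CPM in all 6.

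Over the 45 pairs of members, correlations of log2(CPM + 0.1) across the 6 libraries had a median Pearson r of 0.083, with 26 above 0, and no pair had an adjusted p below 0.44. The median was 0.20 over the 28 pairs of tested members, which leave out the scarce Cnn1 and Rgs5. The 10 pairs among Acta2, Tagln, Cspg4, Mcam and Tpm2, a group described after its values were seen, had r from 0.63 to 0.94, and from 0.37 to 0.90 on deviations from the group means. Acta2 and Mcam were the closest pair (r = 0.94, exact permutation p = 0.011, adjusted p = 0.44; Spearman rho = 0.89, exact permutation p = 0.033, adjusted p = 0.50), and r was 0.95 without the 2 libraries farthest from the Acta2 median and 0.90 on deviations from the group means. Acta2 with Tpm2 gave r = 0.76 (exact permutation p = 0.058, adjusted p = 0.49), with rho = 0.77 (exact permutation p = 0.10, adjusted p = 0.56) and r = 0.76 without the 2 farthest libraries. Tagln with Cspg4 gave r = 0.78 (exact permutation p = 0.061, adjusted p = 0.49), with rho = 0.66 (exact permutation p = 0.18, adjusted p = 0.61), and r was -0.02 without the 2 farthest libraries, so that it rests on those. Myh11 ran against Tpm2 (r = -0.91, exact permutation p = 0.019, adjusted p = 0.44; rho = -0.83, exact permutation p = 0.058, adjusted p = 0.56), with r = -0.99 without the 2 libraries farthest from the Myh11 median and -0.82 without the 2 farthest from the Tpm2 median, but on 3 to 40 Myh11 counts a library. Myh11 also ran against Tagln (r = -0.85, exact permutation p = 0.031, adjusted p = 0.46; rho = -0.94, exact permutation p = 0.017, adjusted p = 0.50), with r = -0.58 without the 2 farthest libraries. All pairs share the libraries and their depth.

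For Tpm2, Tagln and Cnn1, the more widely expressed relatives compared here were at a higher level per length in all 6 libraries, which also hold melanoma transcripts. The tropomyosins Tpm1, Tpm3 and Tpm4, which most cells use in their cytoskeleton, were at 56.2, 32.4 and 77.9 RPKM, and in each library Tpm4 was 19.1 to 53.8 times the level of Tpm2. Tagln2 was at 16.8 RPKM and 6.94 to 34.5 times Tagln. Cnn3 and Cnn2 were at 56.1 and 9.78 RPKM, while Cnn1 was at 0 in 5 libraries. Myl6, a light chain shared by smooth muscle and non-muscle myosin, was at 72.2 RPKM and 33.6 to 92.4 times Myl9. It is another kind of light chain than Myl9, and other regulatory light chains were not compared. Among the smooth muscle actins, Acta2 was 3.34 to 32.1 times Actg2, the isoform of gut smooth muscle, and the widely expressed actins were not compared. These ratios were within libraries and compare levels per length.

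**Figure D4:**
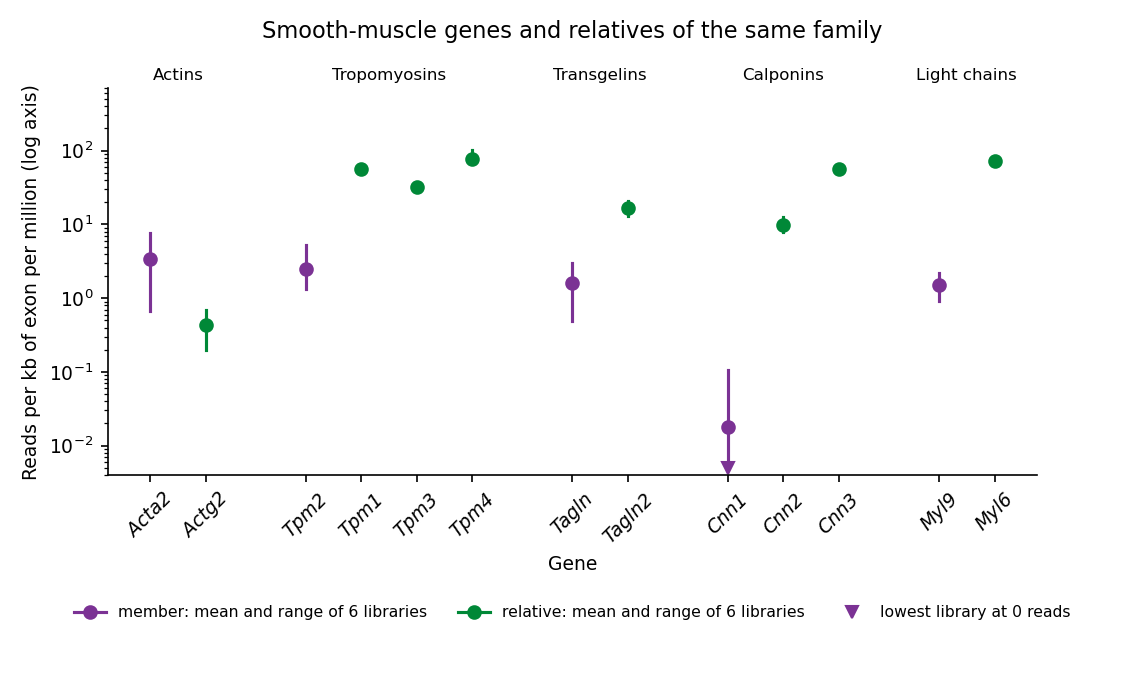
Level per length (RPKM, log axis) of contractile members (purple) and their relatives (green) in 5 protein families. Points are means and lines run from the lowest to the highest of the 6 libraries, a triangle marking a lowest library at 0 reads. Tropomyosin, transgelin and calponin relatives lie above the smooth muscle member of the family, and Actg2, a smooth muscle isoform itself, lies below Acta2. Myl6, another kind of light chain than Myl9, lies above it.

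Of 19 other pericyte genes, 14 passed the filter, 0 had an adjusted p under 0.05, 9 had a fold change below 0 and 5 above, and the median log2 fold change was -0.36, against -0.0029 over all genes tested. This median was 0.08 without Ctrl 1, -0.65 without Ctrl 2 and -0.17 without DTR 1. Pdgfrb, the receptor by which pericytes are recruited to vessels, was the most abundant per length after Steap4, at 68.6, 18.4 and 50.4 CPM in Ctrl and 28.3, 37.5 and 54.6 CPM in DTR, and its groups overlapped (log2 fold change -0.19 ± 0.43, SE). Its fold change ran from -0.57 to 0.22 with 1 library left out. Steap4, a metalloreductase of mural cells, was at 43.3, 14.5 and 25.6 CPM in Ctrl and 35.9, 21.0 and 39.0 in DTR. The lowest fold change was that of Ednra, the endothelin receptor, at -1.13 ± 0.59 (SE; adjusted p = 0.65 by edgeR), or -1.80 to -0.71 with 1 library left out. The highest was that of Ebf1, a transcription factor of pericytes and fibroblasts, at 48.8, 24.6 and 31.3 CPM in Ctrl and 71.2, 56.7 and 131 CPM in DTR. Every DTR library was above every Ctrl library for Ebf1, with a log2 fold change of 1.31 ± 0.35 (SE) and an adjusted p of 0.60 by edgeR. It was the only tested gene of this list whose groups did not overlap, or 7.14%, near the 6.32% of all genes tested that were higher in this way. With libraries scaled to their fibroblast markers, which put the median of all genes tested at -0.44, Steap4 was at -0.17 and Ebf1 at 0.84. Higd1b, a marker of capillary pericytes, had no counts in any library.

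Of 29 other contractile genes, 26 passed the filter, 0 had an adjusted p under 0.05, 17 were below 0 and 9 above, and the median log2 fold change was -0.06, which ran from -0.12 without Ctrl 3 to -0.0098 without DTR 1. Groups did not overlap for 4 that were lower in DTR and 1 that was higher, 15.4% of those tested being lower in this way against the 8.18% of all genes. Csrp1, a LIM protein of the actin cytoskeleton and the most abundant of the list per length, was at 466, 554 and 557 CPM in Ctrl and 406, 446 and 415 CPM in DTR (log2 fold change -0.32 ± 0.10, SE; adjusted p = 0.60 by edgeR). Cnn2 was at 29.3, 31.0 and 23.4 CPM in Ctrl and 19.8, 21.5 and 19.4 in DTR (-0.46 ± 0.14). Tpm1 (-0.14 ± 0.08) and Myl6 (-0.19 ± 0.08) were the other genes lower in this way, and Rock2, a kinase that raises myosin activity, was higher at 288, 329 and 340 CPM in DTR against 283, 279 and 274 CPM in Ctrl (0.19 ± 0.09). The lowest fold change of the list was that of Itga8, the integrin α8 chain, at -0.48 ± 0.39, and the highest that of Lmod1, leiomodin, at 1.13 ± 0.83, both on few counts. With 1 library left out Itga8 ran from -0.68 to -0.29 and Lmod1 from 0.60 to 1.95. With the scaling to fibroblast markers, which put 86.7% of all genes tested below 0, Rock2 was at -0.23, above the median of all genes of -0.44. Pdlim3 had no counts in any library.

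Of 10 regulators of these genes, 8 passed the filter, 0 had an adjusted p under 0.05, 4 were below 0 and 4 above, and the median log2 fold change was 0.05. Srf itself was at 36.7, 29.5 and 28.8 CPM in Ctrl and 29.5, 35.5 and 26.9 CPM in DTR, and its groups overlapped (log2 fold change -0.05 ± 0.15, SE). Myocd, the myocardin coactivator that is restricted to heart and smooth muscle, had no counts in any library. Its relatives Mrtfa and Mrtfb, which respond to actin polymerization in many cells, were at 44.3 to 57.7 and 71.7 to 88.6 CPM. Mrtfa had every DTR library above every Ctrl library, as 6.32% of all genes tested did, with a log2 fold change of 0.19 ± 0.10 (SE) and an adjusted p of 0.66 by edgeR, and was the only tested regulator whose groups did not overlap. Klf4, a repressor of the contractile program in smooth muscle, was the most abundant regulator per length, followed by Srf and Mrtfb, and was at 140, 60.3 and 61.5 CPM in Ctrl and 108, 51.1 and 195 CPM in DTR, highest in the 3 libraries with a high fibroblast sum (log2 fold change 0.43 ± 0.49, SE). With 1 library left out the estimate of Klf4 ran from -0.13 to 0.95. The lowest fold change was that of Elk1, an SRF partner, at -0.16 ± 0.15, and the highest that of Tgfb1i1, at 0.59 ± 0.31. With 1 library left out Elk1 ran from -0.28 to -0.09 and Tgfb1i1 from 0.31 to 0.80. With the scaling to fibroblast markers Mrtfa was at -0.21 and Klf4 at -0.05, both above the median of all genes of -0.44. Foxs1, a pericyte transcription factor, had 6, 6 and 17 counts in Ctrl and 0, 3 and 4 in DTR and did not pass the filter.

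**Figure D5:**
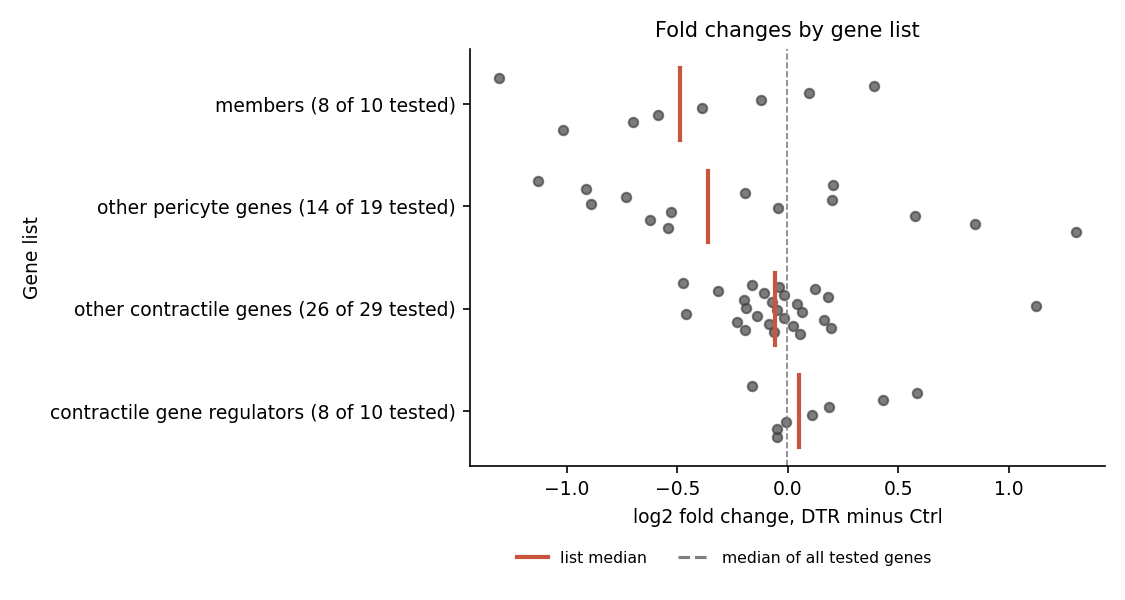
Log2 fold change (DTR minus Ctrl) of each tested gene in the 4 lists, 1 point a gene, with the median of each list in red and the median of all 15133 tested genes as a dashed line. With TMM scaling the medians are -0.49 for the members, -0.36 for the other pericyte genes, -0.06 for the other contractile genes and 0.05 for the regulators, that of the other pericyte genes being 0.08 without Ctrl 1, and no gene passed the adjusted threshold.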

How the data were processed

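PDPN+PDGFRα+ cells of MO5 tumors were profiled in 3 Ctrl and 3 DTR libraries made with a stranded kit for small amounts of total RNA. The authors trimmed reads with cutadapt 3.4, aligned them to GRCm38 with STAR 2.7.3a and deposited raw counts per gene from featureCounts 2.0.1, which used strand. Deposited DESeq2-scaled values, fold changes and p-values were not used. The members and gene lists were chosen with earlier results of these data known.

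Totals ran from 22339635 to 34271929 counts. Genes were kept by filterByExpr (minimum count 10, minimum total 15), which left 15133 of 53801. DTR was compared with Ctrl by edgeR 4.0.16's quasi-likelihood test (TMM, two-sided, no covariates), with Benjamini-Hochberg adjustment over all tested genes and a threshold of 0.05. The SE of a log2 fold change was its size divided by the root of its F value. Single genes were also compared by exact permutation of log2(CPM + 0.1). RPKM use merged exon lengths of the GENCODE annotation of GRCm38. Of the 50-base words in their transcripts, Acta2 shares 0.326% with Actg-ps1 and Myh11 0.34% with Myh9, and the other 8 members share none. Tagln, Des and Mcam overlap genes of the opposite strand. Members were all named, as were the lowest, the highest, the non-overlapping and the 3 most abundant genes of each pathway list, and the most abundant gene of each marker list. Alternatives were other size factors, other count filters, robust moderation, DESeq2 1.42.0, limma 3.58.1 voom, a replicate block, an offset for genomic span and each library left out. Steps were tested on simulated data. R 4.3.3 and Python 3.11.15 were used.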

Additional observations from a re-analysis of the deposited data

How the results depend on the processing

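No member passed the adjusted threshold in any of the 17 fits, and 118 of 127 fold changes of members under an alternative kept their sign. Signs turned for Des without Ctrl replicate 1 (0.25) and without DTR replicate 2 (0.07), for Tpm2 without Ctrl replicate 1 (0.14), for Myh11 without Ctrl replicate 1 (-0.08) or DTR replicate 1 (-0.22), and for Myl9 without Ctrl replicate 2 (-0.16) or DTR replicate 3 (-0.11). With libraries scaled to fibroblast markers, chosen after seeing the data, the median of all genes tested was -0.44 and 86.7% of them were below 0, so that the signs of Myh11 (-0.46) and Myl9 (-0.28), which turned, moved with those of most genes. There 0 members had an unadjusted p under 0.05, 2 genes in all were called and the median of the other contractile genes was -0.44. Members at an unadjusted p under 0.05 numbered 1 in the reported fit, 3 in the fit of all genes with a count, 2 by DESeq2 and 0 to 4 with a library left out: 0 without Ctrl 1 or DTR 1, 4 without Ctrl 2 or DTR 2, and 2 without Ctrl 3. The share of all genes at this threshold was taken for the reported fit alone (7.92% by edgeR). The counts from the other fits therefore have no background beside them and are not read as a result about the members. All genes called numbered 31 by DESeq2 and 0 to 2 with a library left out, 2 being without Ctrl 1. The median of the members lay between -0.73 (without Ctrl 2) and -0.17 (without Ctrl 1), that of the other pericyte genes was between -0.65 and 0.08, and above 0 without Ctrl 1, and that of the other contractile genes was -0.16 with the offset for genomic span and from -0.12 to -0.0098 with a library left out. Over left-out libraries Tpm2 ran from -0.94 to 0.14, Des from -0.38 to 0.25, Myh11 from -0.22 to 1.32 and Myl9 from -0.16 to 0.49. The cause was not tested. The filter on 10 counts in every library leaves out Myh11.

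With the replicate block the members' median was -0.38, 0 members were called and Cspg4 had a log2 fold change of -0.99 with an adjusted p of 0.58 by edgeR. Same-numbered libraries deviated from their group means with r of 0.12, 0.13 and -0.05 over tested genes, and 4 of 6 libraries correlated best with their own number. These values do not settle whether the numbers pair the samples. The reported fit took no pairing, and the block is given as an alternative. Depth limits Cnn1, Rgs5 and Myh11 most, with 9, 66 and 103 counts over all libraries.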

Other observations

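Outside the lists, the genes whose pattern over the 6 libraries was most like the mean standardised profile of the 8 tested members were Ereg (r = 0.98), Rps6-ps4 (r = 0.98), Unc5b (r = 0.98), Adam8 (r = 0.98) and Asns (r = 0.97), as a description over 6 libraries that share their depth. Ereg, the growth factor epiregulin, was at 8.05, 1.63 and 2.71 CPM in Ctrl and 1.28, 1.45 and 1.59 CPM in DTR. Unc5b, a netrin receptor, was at 26.3, 12.3 and 18.0 CPM in Ctrl and 13.6, 14.4 and 13.9 in DTR. These genes were picked as the closest among the tested genes outside the lists, so a high r came with the choice. The profile they were chosen to match is highest in Ctrl 1.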
